A study of Mus musculus with 6 samples.

Results

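CpG methylation was described at 8 genes of lymphocyte adhesion and the actin cytoskeleton, Cytip, Coro1a, Coro2a, Cass4, Myo1e, Myo1g, Itgal and Itgb2, among the 21887 protein-coding genes of the mouse gene table. A CpG position, counted on each strand separately, belonged to a gene if it had at least 10 reads in all 6 libraries and lay within 5 kb of the gene's annotated span in GRCm38. This gave 669 positions of the 1463025 covered in all 6 libraries. The 8 genes were selected on their difference in CpG methylation between KO and WT in these same libraries. That difference is therefore given as a description, and no p-value of it is printed. Counts of features near these genes that passed a methylation test are description too.

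The libraries came from germinal centre B cells of the spleen of C57BL/6 mice, 3 labelled as Tet2 knockout (KO) and 3 as Tet2 wild type (WT). Methylation was read by enhanced reduced representation bisulfite sequencing (ERRBS), in which the enzyme MspI cuts DNA at CCGG before bisulfite conversion, so that stretches rich in this site are read deeply. The allele or Cre line behind the knockout, the ages of the mice, the immunisation and the sorting gate are not stated in the labels. Nothing states that the replicates are separate animals, so a p-value measures only the spread between these libraries.

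TET2 oxidises 5-methylcytosine to 5-hydroxymethylcytosine, a step on the way to unmethylated cytosine, and bisulfite reads both forms alike as methylated. Germinal centre B cells crawl through the follicle and form contacts with T cells and follicular dendritic cells. The integrin LFA-1 holds such contacts by binding ICAM proteins on the other cell, and coronins and class I myosins act on the actin layer under the membrane.

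Coverage summed over listed CpG positions was 195582108, 183417223 and 180397494 in the KO libraries, against 178955262, 174375503 and 203863392 in the WT libraries. A read that spans several CpGs is counted at each. Mean coverage was 101 to 125 reads per listed position. Within Tet2, 6 positions were listed in all 3 WT libraries and in no KO library, while 108 were covered in all 6. The mean correlation across positions was 0.983 between KO libraries, 0.975 between KO and WT libraries and 0.970 between WT libraries. As a check of the cell type, the starts of the B-cell genes Pax5, Ebf1, Bcl6 and Cd22, the 4 of 10 listed with covered positions, were at 0 to 3.71% in KO and 0.0930% to 2.91% in WT. The T-cell genes Zap70 and Tcf7, the 2 of 10 with coverage, were at 89.4% and 8.18% in KO and 85.3% and 7.58% in WT. The start of Cebpa, the only one of 10 myeloid markers with coverage, was at 1.09% in KO and 1.02% in WT, so a low start was not particular to B-cell genes. A methylation level in bulk DNA cannot tell a change within each cell from a change in the mix of cells.

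Promoter sequences are shown for 3 of the genes because they set out where ERRBS could and could not read the start of a gene. They are the 250 bases before the annotated start, 5′ to 3′ on the gene's own strand, from RefSeq for GRCm38.p6, in which 6 of the 8 genes had an entry. Capitals mark CpGs covered in all 6 libraries. Coro2a lies at chr4:46601930-46602179 on the minus strand, Coro1a at chr7:126704817-126705066 on the minus strand and Cass4 at chr2:172393394-172393643 on the plus strand.
Coro2a: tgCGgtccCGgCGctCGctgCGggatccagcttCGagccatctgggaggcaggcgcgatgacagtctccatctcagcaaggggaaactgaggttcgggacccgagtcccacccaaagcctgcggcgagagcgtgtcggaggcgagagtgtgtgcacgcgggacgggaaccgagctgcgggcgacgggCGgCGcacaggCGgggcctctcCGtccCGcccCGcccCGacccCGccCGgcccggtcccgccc
Coro1a: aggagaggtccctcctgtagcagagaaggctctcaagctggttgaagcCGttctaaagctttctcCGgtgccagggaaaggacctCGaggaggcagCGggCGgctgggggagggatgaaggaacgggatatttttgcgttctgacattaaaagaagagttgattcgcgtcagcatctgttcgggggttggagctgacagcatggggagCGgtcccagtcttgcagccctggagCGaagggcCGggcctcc
Cass4: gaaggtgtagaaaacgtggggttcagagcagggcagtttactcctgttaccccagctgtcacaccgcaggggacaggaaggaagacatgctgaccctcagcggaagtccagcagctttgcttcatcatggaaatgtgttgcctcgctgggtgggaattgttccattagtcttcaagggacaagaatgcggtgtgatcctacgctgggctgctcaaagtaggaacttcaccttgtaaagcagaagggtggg
The Coro2a window held 33 CpGs, of which 15 were covered, and as many CpGs or more stood in 4.03% of the 32851 promoter windows of that length. The Coro1a window held 13 CpGs with 8 covered, and the Cass4 window held 6 with none covered. The MspI motif CCGG, which reads the same on both strands, occurred 3 times in the Coro2a window, 2 times in that of Coro1a and not at all in that of Cass4. It was present in 47.1% of all windows. The windows of Cytip and Myo1g each held it 1 time and had no covered CpG, and that of Myo1e held it 1 time and had 2 covered CpGs.

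The annotated starts that could be read were unmethylated in both genotypes. Within 1 kb of its start, Coro2a had 110 covered positions, the most of any of these genes. They averaged 0.277%, 0.325% and 0.231% methylation in the KO libraries, against 0.222%, 0.229% and 0.137% in the WT libraries. Coro1a had 46 such positions at 0.525% ± 0.411 in KO and 0.267% ± 0.145 in WT (SD, n = 3 each). Myo1e had 55 at 0.166% ± 0.0915 in KO and 0.199% ± 0.150 in WT, with the groups overlapping. No position within 1 kb of the start was covered for Cytip, Cass4 or Myo1g. At the lower end of the annotated Itgal span a 1 kb tile with 18 positions averaged 0.572% ± 0.332 in KO and 0.260% ± 0.370 in WT.

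Over each gene with its flanks, every covered position given equal weight, the KO mean was higher than the WT mean at all 8 genes. The differences were 0.741 to 12.2 percentage points, and the KO and WT libraries did not overlap except at Myo1g and Itgal. How many of all genes had separate groups was not counted. The 8 genes were selected on this contrast, so nothing is read from the lack of overlap. Among the 17063 genes with at least 5 covered positions, the median difference was 0.495 points and 79.0% of genes had a KO mean above the WT mean. The 8 genes differed widely in level, with means near 5% at Coro1a and near 95% at Myo1g.

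**Figure D1:**
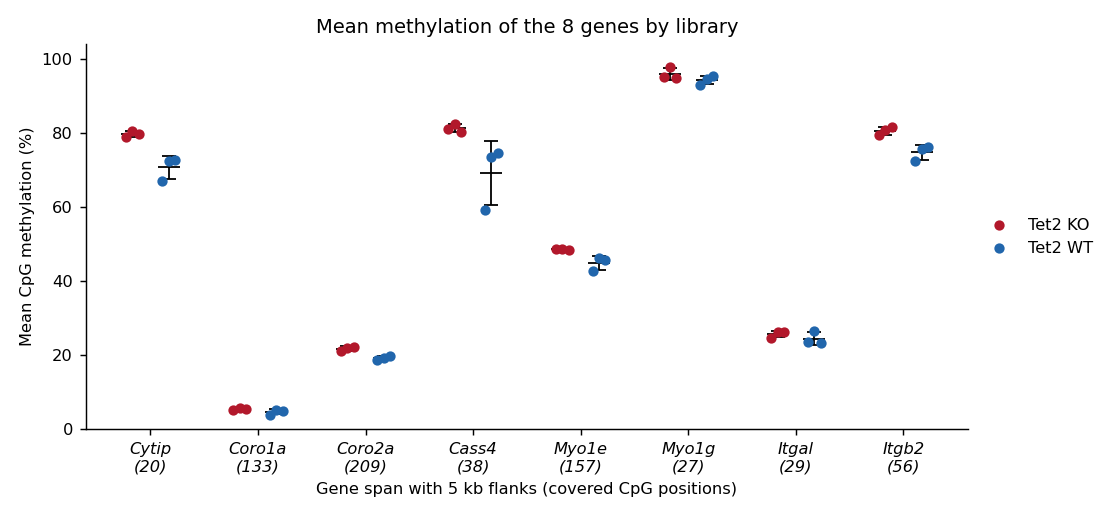
Mean methylation (%) of each gene with 5 kb on either side, equal weight for each covered CpG position, in 3 Tet2 KO and 3 Tet2 WT libraries; points are libraries, horizontal lines the group means, error bars the SD, and numbers in brackets the covered positions. KO means lie above WT means at all 8 genes, and the libraries of the groups overlap at Myo1g and Itgal.

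Cytip, on chromosome 2 from 58129139 to 58195549, encodes an adaptor of leukocytes that binds cytohesin-1, an activator of Arf GTPases that promotes LFA-1 adhesion. Its 20 covered positions averaged 78.9%, 80.6% and 79.8% in the KO libraries, against 67.0%, 72.5% and 72.6% in the WT libraries. All KO libraries lay above all WT libraries, by a mean difference of 9.06 points, the 99.5th percentile of genes. With reads pooled, so that deeply read positions weigh more, the difference was 15.5 points. The start annotated in the promoter table, at 58160122, lies inside this span, and the covered positions closest to it were more than 15 kb away.

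Cass4, on chromosome 2 from 172393644 to 172433752, encodes a scaffold of the Cas family that is docked to focal adhesions. Its 38 positions averaged 80.96%, 82.4% and 80.4% in the KO libraries, against 59.1%, 73.5% and 74.6% in the WT libraries. WT replicate 1 was the lowest library by a wide margin. The mean difference of 12.2 points, at the 99.8th percentile of genes, was 7.19 points without that library.

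Of the integrin chains, Itgb2 (chromosome 10, 77530329 to 77565708) encodes the beta2 chain shared by LFA-1 and the other leukocyte integrins of its family. Its 56 positions were at 79.5%, 80.8% and 81.5% in the KO libraries, against 72.5%, 75.6% and 76.3% in the WT libraries, a difference of 5.80 points without overlap. Itgal (chromosome 7, 127296139 to 127335137) encodes the alpha chain that pairs with beta2 in LFA-1. Its 29 positions were at 24.7%, 26.2% and 26.2% in the KO libraries, against 23.5%, 26.6% and 23.4% in the WT libraries. WT replicate 2 was the highest of all 6, and the difference of 1.21 points was within the spread of the WT libraries. The beta chain was thus read mostly at methylated positions and the alpha chain mostly at unmethylated ones, since 21 of the 29 Itgal positions were under 20%.

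Coro1a (chromosome 7, 126699774 to 126704816) encodes the coronin of blood cells, which binds actin and is needed for the survival of naive T cells. Of its 133 positions 124 were under 20%, and 90 of the 133 lay in the flanks, where Bola2 and Slx1b also lie. It averaged 5.16%, 5.65% and 5.54% in the KO libraries, against 3.94%, 5.14% and 5.05% in the WT libraries. Coro2a (chromosome 4, 46536937 to 46601929) encodes a coronin that also takes part in the NCoR corepressor complex. Its 209 positions averaged 21.0%, 21.9% and 22.3% in the KO libraries, against 18.8%, 19.3% and 19.8% in the WT libraries. The lowest KO library was above the highest WT library in both coronins, by a narrow gap in Coro1a, with differences of 0.741 points for Coro1a and 2.44 points for Coro2a. The Coro1a difference was 0.355 points without WT replicate 1, and 0.310 points with reads pooled, where the groups overlapped.

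Myo1e (chromosome 9, 70207350 to 70400067) encodes a class I myosin that links membranes to actin, best known from the podocytes of the kidney. Its 157 positions were at 48.7%, 48.8% and 48.4% in the KO libraries, against 42.7%, 46.3% and 45.6% in the WT libraries, a difference of 3.77 points without overlap. With reads pooled the difference was 2.23 points and the groups overlapped. Myo1g (chromosome 11, 6506548 to 6520960) encodes a class I myosin of blood cells. All of its 27 positions averaged over 80%. They were at 95.1%, 97.8% and 94.7% in the KO libraries, against 93.0%, 94.6% and 95.3% in the WT libraries, and the groups overlapped.

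The differences were largest at positions of intermediate level. Each position was put in a class by its mean over all 6 libraries, which draws positions with large differences into the middle class. The 73 positions between 20% and 80% averaged 66.0%, 68.8% and 68.7% in the KO libraries, against 39.8%, 52.6% and 52.0% in the WT libraries. That is a difference of 19.7 points, where all 147768 covered positions of that class differed by 4.10 points. The 214 positions over 80% were at 93.8% ± 0.792 in KO and 90.5% ± 2.33 in WT, and the 382 under 20% were at 1.06% ± 0.236 in KO and 0.786% ± 0.0739 in WT. Intermediate levels were common at Cass4, where 19 of 38 positions were in the middle class, and absent at Myo1g, where none was.

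In the middle class the KO mean was higher at 6 of the 7 genes that had such positions. Cytip had 2 of them, at 41.6% in KO and 5.77% in WT. These were 58138851 and 58138898, whose partner positions on the other strand were at 0% in all 6 libraries. The 19 of Cass4 were at 74.8% in KO and 53.3% in WT, and the 17 of Myo1e were at 73.0% in KO and 52.9% in WT. The 20 of Coro2a were at 59.3% in KO and 40.5% in WT, and the 10 of Itgb2 were at 76.1% in KO and 57.7% in WT. Coro1a had 4, at 54.3% in KO and 39.1% in WT. The exception was Itgal, whose single position was at 42.4% in KO and 46.9% in WT with overlapping libraries. WT replicate 1 was the lowest library of this class at each of the 7 genes except Cytip. It was at 21.8% in Coro1a, with the other WT libraries at 48.0% and 47.5%. In Cass4 it was at 40.7%, beside 59.9% and 59.4%, and in Myo1e at 42.3%, beside 59.4% and 57.0%. In Itgb2 it was at 51.3%, beside 59.8% and 61.8%, and in Coro2a at 38.7%, beside 42.0% and 40.8%.

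Reads were summed over the positions of 1 kb tiles with at least 3 covered positions, so a read spanning several CpGs counts at each. Of these tiles 62 had a covered position within 5 kb of one of the 8 genes. A tile was tested across the genome if its mean level was 5% to 95%, and called if the moderated quasi-binomial test gave an adjusted p under 0.05 and the group means were at least 10 points apart. Of the 46 tiles tested near the 8 genes, 5 were called higher in KO and 0 lower, where 0.685% of the 83114 tiles tested in the genome were called higher and 0.00241% lower. The choice of the genes rested on this contrast, so nothing is read from that count. The KO mean was higher in 41 of the 46 tiles (64% in the genome). All KO libraries lay above all WT libraries in 16 tiles (12.7% in the genome) and below them in 0 (3.54% in the genome). The median difference was 5.07 points, and 1.28 points over all tested tiles. WT replicate 1 was the lowest of the 6 libraries in 25 of the 46 tiles, and in 29.99% of all tested tiles.

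**Figure D2:**
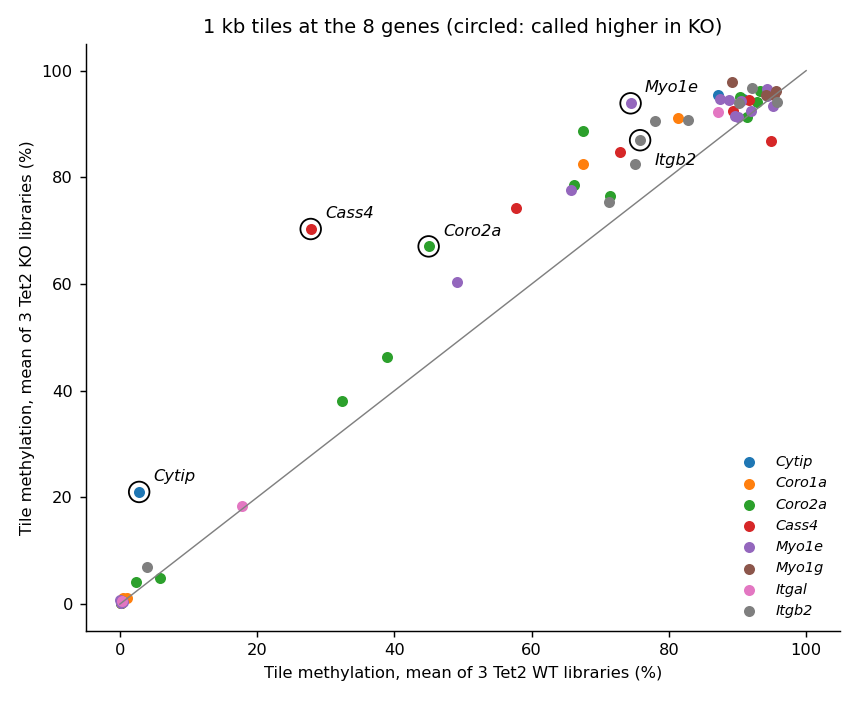
Mean methylation (%) of each 1 kb tile near the 8 genes, Tet2 KO on the y axis and Tet2 WT on the x axis, with called tiles marked and the diagonal showing equal levels. Most tiles near 0% in WT lie close to the diagonal, but the called Cytip tile, at 21.0% in KO and 2.82% in WT, lies above it. Most tiles of intermediate level lie above the diagonal, and the Cass4 tile at 70.3% in KO and 27.8% in WT is farthest from it.

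The Cass4 tile had the largest difference of the 62. It covers chromosome 2 from 172390001 to 172391000, outside the annotated gene, with its near end 2644 bp upstream of the annotated start. Its 3 positions were at 73.9%, 72.9% and 64.1% in the KO libraries, against 19.6%, 26.2% and 37.6% in the WT libraries, from 221 to 633 reads per library. The lowest KO library stood well above the highest WT library. The difference of 42.5 points was 38.4 to 47.4 with 1 library left out, and the tile stayed called in 6 of 6 such fits. The position at 172390943 differed most, at 79.3%, 73.8% and 61.3% in the KO libraries against 13.1%, 17.3% and 30.1% in the WT libraries. The first covered position beyond the upper end of the tile, 172391011, was at 58.1% ± 5.06 in KO and 39.6% ± 13.8 in WT and was not called. The one after it, 172391037, was at 86.1% ± 6.92 in KO and 48.3% ± 23.9 in WT and was called. Inside the gene, a tile from 172416001 was at 74.2% ± 2.88 in KO and 57.7% ± 17.3 in WT, with WT replicate 1 at 38.6% and the groups overlapping. The tile nearest the lower end of the span, from 172395001, was at 84.8% ± 3.19 in KO and 72.9% ± 13.2 in WT. The tile from 172426001 went the other way, at 86.8% ± 1.49 in KO and 94.9% ± 7.16 in WT, with overlapping libraries.

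The Coro2a tile covers chromosome 4 from 46581001 to 46582000, inside the gene and about 20 kb downstream of its start, at 20428.5 bp from start to midpoint. Its 11 positions, all on the forward strand and all higher in KO on average, were at 66.5%, 63.2% and 71.5% in the KO libraries, against 47.5%, 48.3% and 39.2% in the WT libraries. The groups were separate, with 2547 to 4097 reads per library when summed over the 11 positions. A read spanning several of them counts at each, so distinct reads were fewer. The difference of 22.1 points stayed called in 6 of 6 fits with 1 library left out, and lost its call when the CpGs of highest coverage in the genome, those over 362.8 reads on average, were left out, although the difference was then 22.5 points. The position at 46581670 showed 50%, 96.97% and 81.7% in the KO libraries, against 1.64%, 16.3% and 28.2% in the WT libraries, from 33 to 178 reads. The more deeply read position 46581781 showed 77.4%, 68.8% and 79.1% in the KO libraries, against 52.4%, 57.7% and 42.7% in the WT libraries. Libraries of one genotype differed more at the thinly read position than at the deeply read one.

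Other Coro2a tiles were spread over all levels. The tile from 46536001 reaches the distal end of the gene, but its 3 covered positions lie outside the span, in the flank. Trim14 and Gm16731 also overlap this tile. It was at 88.8% ± 4.67 in KO and 67.5% ± 10.03 in WT, without overlap and without a call. The tile at the start, from 46601001, held 85 positions at 0.572% ± 0.175 in KO and 0.330% ± 0.0753 in WT. The tile from 46594001 was level, at 91.3% ± 1.95 in KO and 91.3% ± 1.46 in WT. The unmethylated start and the called tile thus lay about 20 kb apart in the same gene.

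The Myo1e tile covers chromosome 9 from 70251001 to 70252000, inside the gene, with its midpoint 44150.5 bp downstream of the start. Its 4 positions were at 96.5%, 93.4% and 91.8% in the KO libraries, against 56.5%, 84.5% and 82.3% in the WT libraries. WT replicate 1 was far below the other WT libraries, and without it the difference of 19.5 points was 10.5 and was not called. The tile stayed called in 2 of 6 fits with 1 library left out. Position 70251934 in that tile showed 97.9%, 90.8% and 94.7% in the KO libraries, against 40.6%, 64.6% and 60.6% in the WT libraries, so there all 3 WT libraries were low. Further positions far from it had separate groups. Position 70221624 was at 85.4% ± 6.90 in KO and 51.0% ± 24.4 in WT, from 19 to 59 reads. Its groups were only narrowly apart, with the lowest KO library at 80% and the highest WT library at 78.9%. Position 70389986 was at 95.6% ± 0.690 in KO and 64.4% ± 18.2 in WT. Neither position was called. The tile at the start, from 70207001, held 36 positions at 0.175% ± 0.0943 in KO and 0.128% ± 0.147 in WT.

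The Itgb2 tile covers chromosome 10 from 77557001 to 77558000, inside the gene. Its 7 positions were at 85.7%, 88.1% and 87.1% in the KO libraries, against 71.7%, 75.2% and 80.6% in the WT libraries. The difference of 11.2 points was 9.08 without WT replicate 1, under the 10 points that a call needs, and the tile stayed called in 1 of 6 fits with 1 library left out. Its position with the largest difference, 77557513, showed 78.9%, 88.8% and 84.3% in the KO libraries, against 56.7%, 56.4% and 52.4% in the WT libraries. The neighbouring tile from 77556001 had a larger difference, at 90.6% ± 2.44 in KO and 78.0% ± 11.2 in WT, and was not called. In Itgal no tile was called, and the largest difference was in the tile from 127310001, at 92.3% ± 3.16 in KO and 87.1% ± 7.78 in WT with overlapping libraries.

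The Cytip tile covers chromosome 2 from 58138001 to 58139000, inside the gene, with its midpoint 21621.5 bp downstream of the start in the promoter table. It was at 22.4%, 18.2% and 22.4% in the KO libraries, against 3.13%, 0% and 5.33% in the WT libraries, from 147 to 376 reads, and stayed called in 1 of 6 fits with 1 library left out. The tile holds only 2 CpGs, each read on both strands, and the strands did not match. At the first CpG the forward position 58138851 showed 41.8%, 16.7% and 69.4% in the KO libraries, against 12.2%, 0% and 1.23% in the WT libraries, while the reverse position 58138852 was at 0% in all 6. At the second CpG the reverse position 58138898 showed 47.5%, 52.5% and 21.6% in the KO libraries, against 1.20%, 0% and 20% in the WT libraries, while the forward position 58138897 was at 0% in all 6. Symmetric methylation, the usual state of a CpG, would read alike on both strands. The part of library construction or of fragment ends in this was not tested.

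Of 122583 positions in the genome whose partner strand averaged at least 20%, 1635, or 1.33%, were at 0% in all 6 libraries. Near the 8 genes 3 of 50, or 6%, were, the pair in Cytip and position 46564671 in Coro2a. At the next covered CpG of Coro2a the strands were also apart. Position 46564719 was at 1.04% in KO and 0% in WT, and its partner at 88.3% in KO and 77.7% in WT. With the 3 positions at 0% left out the Cytip tile had too few positions to test, and 4 of 45 tiles near the 8 genes were called. The other Cytip tiles were highly methylated, that from 58133001 at 95.4% ± 1.58 in KO and 87.2% ± 5.23 in WT without overlap and without a call. Its position 58133837 was at 93.3% ± 1.19 in KO and 76.7% ± 12.6 in WT. Near the 8 genes 103 CpGs were covered on both strands, and at 29 of them at least 1 strand had a mean of 5% to 95%. Of these 29, both strands were higher in KO at 13 and lower at 1, the strands went opposite ways at 12, and 1 strand had no difference at 3.

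**Figure D3:**
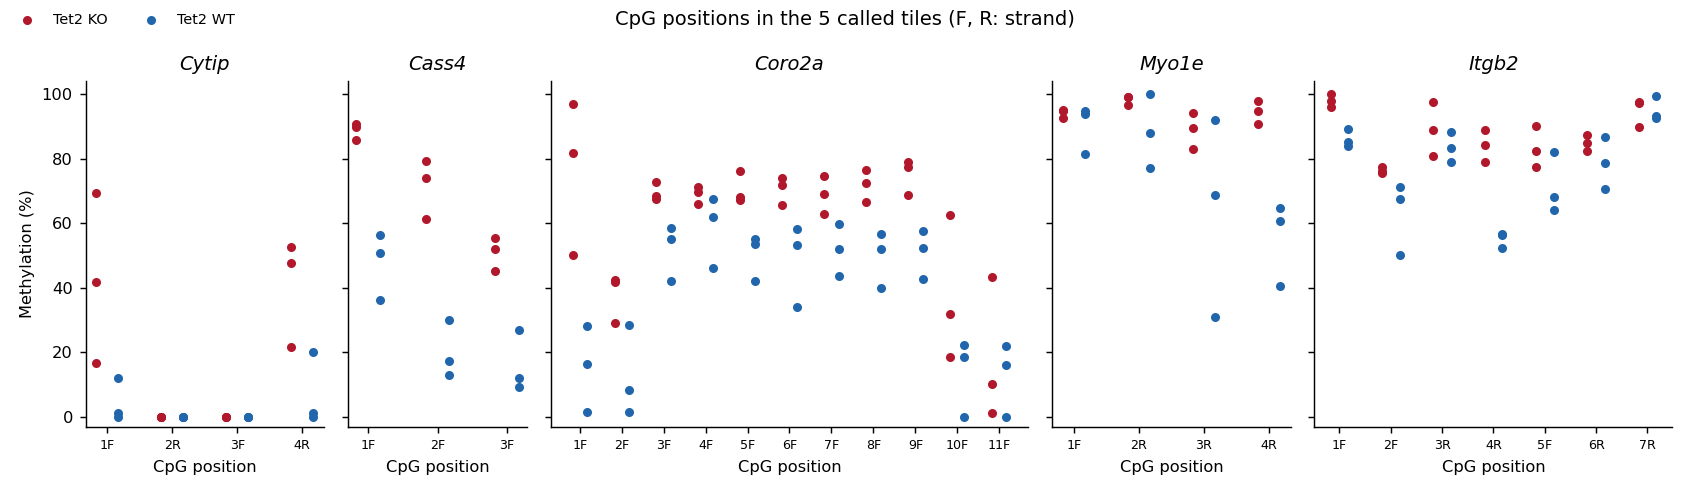
Methylation (%) of each covered CpG position in the 5 called tiles in order along the chromosome, with the strand given as F or R; points are the 3 Tet2 KO and 3 Tet2 WT libraries. In the Cass4 and Coro2a tiles all positions have a higher mean in KO, and in the Cytip tile 2 of the 4 positions are at 0% in all 6 libraries.

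Tiles without a call filled in the other genes. In Coro1a the tile from 126700001, inside the gene, was at 82.4% ± 3.61 in KO and 67.6% ± 6.66 in WT, with separate groups. Its position 126700869 was at 68.6% ± 6.01 in KO and 41.6% ± 14.3 in WT. The Coro1a tile at the start, from 126704001, held 41 positions at 0.231% ± 0.0602 in KO and 0.226% ± 0.146 in WT. In Myo1g the tile from 6511001 was at 97.7%, 97.6% and 98.2% in the KO libraries, against 86.6%, 88.6% and 92.3% in the WT libraries, a difference of 8.66 points without overlap. Most of it came from position 6511023, at 97.3% ± 0.352 in KO and 76.1% ± 3.87 in WT.

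**Figure D4:**
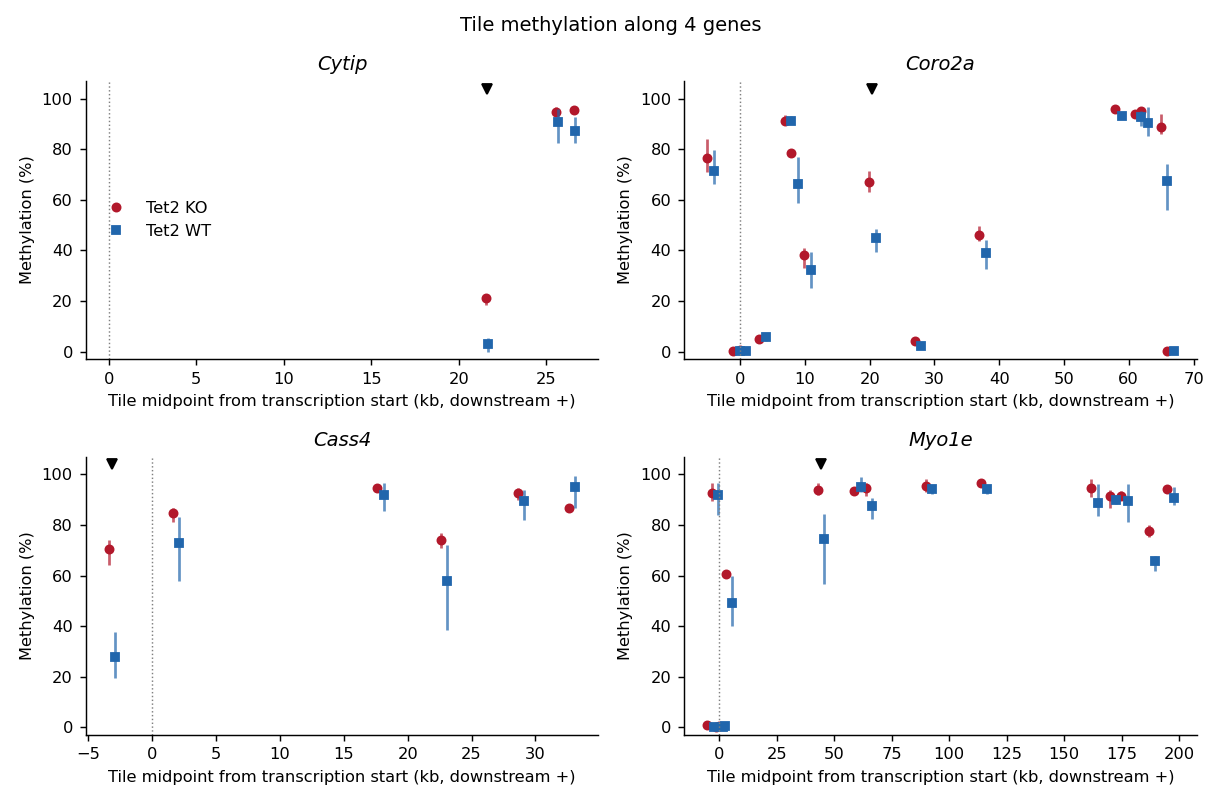
Tile methylation (%) by distance of the tile midpoint from the annotated start (kb) at Cytip, Coro2a, Cass4 and Myo1e; symbols are group means of 3 libraries, KO and WT drawn slightly apart sideways, vertical lines span the libraries and triangles mark called tiles. Tiles at the Coro2a and Myo1e starts are near 0% in both groups, and the called tiles lie away from the starts.

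Sorted by level, the 15 tiles with a WT mean under 5% differed by a median of 0.123 points, and 12 of them by less than 1 point. The 19 tiles with a WT mean of 5% to 80% differed by a median of 11.9 points, and the KO mean was higher in 18 of them. The 28 tiles over 80% differed by a median of 2.81 points, with a range of -8.12 to 9.74. Because a tile sorted into the middle by its WT level can go either way, while one near 0% or 100% has little room in one direction, these medians are not comparable as effects. Of the 5 called tiles, 4 had a WT mean of 5% to 80%, and the fifth was that of Cytip.

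Single positions were tested in the same way as tiles. Of 238 positions tested near the 8 genes, 12 were called higher in KO and 0 lower, where 0.284% of 525213 positions in the genome were called higher and 0.0105% lower. Coro2a held 5 of the 12, Cass4 4, Myo1e 2 and Itgb2 1, and 11 of the 12 lay in the called tiles. Called positions close together on 1 strand can share reads, such as 46581755 and 46581781 in Coro2a or 172390932 and 172390970 at Cass4. The 12 are therefore not independent of each other, and the called tiles sum the same reads. The KO mean was higher at 197 of the 238 (58.9% in the genome), all KO libraries were above all WT libraries at 50 (8.3% in the genome) and below them at 2 (4% in the genome). The median difference was 7.68 points, and 1.69 points over all tested positions. As for the tiles, nothing is read from these counts. None of the 12 was called without KO replicate 2 or without WT replicate 1.

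Over whole gene spans without flanks, 0 of the 7 genes tested were called by the quasi-binomial test, where 0.00844% of 11852 gene spans were called higher and 0.00844% lower. At an unadjusted p under 0.05 there were 4 of the 7, where 11.8% of all gene spans were. Limma, run on the log2 ratio of methylated over unmethylated reads, also called 0, with 4 of the 7 at an unadjusted p under 0.05, where 10.6% of all gene spans were. With 1 kb left out at each end of the span, an alternative chosen after seeing the data, 2 of the 8 were called higher, where 0.0493% of 10137 such spans were. The genes were selected on this contrast, and nothing is read from any of these counts of gene spans. A gene-wide mean is made mostly of positions near 0% in Coro1a and near 100% in Myo1g, and the called tiles hold 3 to 11 positions each.

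Coverage played no part in choosing the genes and was tested on its own. Read counts summed over the covered positions of each of the 62 tiles were compared with edgeR's quasi-likelihood test, and 0 differed at an adjusted p under 0.05, where 0.000881% of 113538 tiles were called higher and 0% lower. At an unadjusted p under 0.05 there were 5 of the 62, or 8.06%, where 7.54% of all tiles were. DESeq2 called 0 as well, with 6 of the 62, or 9.68%, at an unadjusted p under 0.05, where 8.46% of all tiles were. Both shares were near those of the genome. The largest difference was in the Myo1g tile from 6510001, with 332, 319 and 227 reads in the KO libraries, against 513, 643 and 425 in the WT libraries. Its log2 ratio of KO over WT was -0.91 (edgeR adjusted p = 0.493). The called Cytip tile had 232, 214 and 147 reads in the KO libraries, against 320, 376 and 319 in the WT libraries, a log2 ratio of -0.84 (edgeR adjusted p = 0.548). The called Myo1e tile had 764, 770 and 853 reads in the KO libraries, against 736, 393 and 423 in the WT libraries, a log2 ratio of 0.57 (edgeR adjusted p = 0.624). The groups did not overlap in reads in these 3 tiles, yet none of the differences passed the adjustment, and the part of coverage in the methylation differences was not tested.

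**Figure D5:**
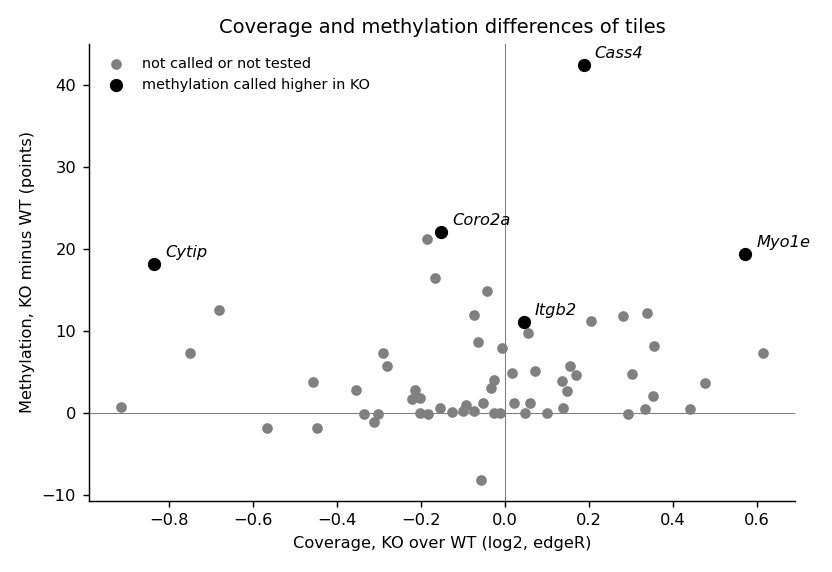
Difference in methylation (KO minus WT, percentage points) against the log2 ratio of coverage (KO over WT) for the tiles near the 8 genes, with called tiles marked. Called tiles lie on both sides of equal coverage, at log2 ratios of -0.84 to 0.57.

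The rule that fixed the positions had edges in distance and in coverage. At the lower end of Coro2a the last position inside the 5 kb was at 94.3% in KO and 93.7% in WT, and the first one outside, 9307 bp from the span, was at 21.6% in KO and 8.04% in WT. At Cass4 the last position inside, at 172390932, was at 88.7% in KO and 47.8% in WT, and the first outside, 11521 bp away, was at 11.4% in KO and 4.90% in WT. At the lower end of Myo1g the last position inside was at 96.0% in KO and 97.4% in WT, and the first outside, 16116 bp away, at 46.1% in KO and 62.6% in WT. Positions with 10 reads in only 5 of the 6 libraries numbered 10 in Myo1e, at 81.1% in KO and 75.5% in WT, and 5 in Coro2a, at 60.8% in KO and 55.6% in WT. There were 2 in Itgal, at 98.4% in KO and 90.5% in WT, 2 in Cass4, at 98.0% in KO and 100% in WT, and 1 in Coro1a, at 0% in both.

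Gene families and partners of the 8 genes were described by the same tile calls, beside the 0.685% of all tested tiles that were called higher. Each list includes those of the 8 genes that belong to it, whose calls were part of their selection, and nothing is read from the counts. Of 51 tested tiles of the 7 coronin genes 2 were called higher and 0 lower, that of Coro2a and 1 in Coro1b, a broadly expressed coronin, at 75.2% ± 5.07 in KO and 54.0% ± 5.62 in WT. Of 75 tiles of the 8 class I myosins 2 were called higher and 0 lower, in Myo1e and in Myo1d, at 77.9% ± 1.78 in KO and 50.6% ± 11.2 in WT in the tile of Myo1d. Of 53 tiles of the Cas scaffolds and focal adhesion kinases 3 were called higher and 0 lower. Beside that of Cass4 these were in Nedd9, another Cas scaffold, at 85.2% ± 5.48 in KO and 47.5% ± 14.6 in WT, and in the kinase gene Src, at 88.98% ± 1.94 in KO and 62.2% ± 2.96 in WT. The median difference was 2.89 points over the coronin tiles, 3.05 over the myosin tiles and 2.24 over those of the Cas list, beside 1.28 over all tested tiles.

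Of 54 tiles of 13 leukocyte integrin genes 2 were called higher and 0 lower, again beside 0.685% called higher in the genome. They were in Itgb2 and in Itgam, the alpha chain that pairs with beta2 in Mac-1, at 90.8% ± 3.16 in KO and 73.8% ± 7.84 in WT. Of 127 tiles of LFA-1 ligands and integrin activators 1 was called higher and 0 lower, or 0.787%, a share near that of the genome. It was in Rasgrp2, an exchange factor for Rap1, at 46.6% ± 1.04 in KO and 21.0% ± 9.29 in WT. Of 43 tiles of the cytohesins, Arf GTPases and Cytip, of which 8 of 9 symbols matched the gene table, only that of Cytip was called. Of 136 tiles of lymphocyte actin regulators 3 were called higher and 0 lower. Those included Arhgap25, a Rac GTPase-activating protein, at 47.97% ± 10.4 in KO and 14.2% ± 6.70 in WT, and Ezr, which encodes ezrin, a linker of membrane and actin, at 93.4% ± 1.35 in KO and 79.2% ± 3.21 in WT. The third was in Diaph1, a formin gene, at 71.7% ± 3.87 in KO and 56.6% ± 4.34 in WT. The median difference was 3.70 points over the integrin tiles, 2.77 over the ligands and activators, 2.52 over the cytohesin list and 3.15 over the actin regulators. In the lists kept for the check of the cell type, 4 of 58 tiles of B-cell genes, 1 of 32 tiles of T-cell genes and 0 of 28 tiles of myeloid genes were called higher, and 0 lower in each; their medians were 5.39, 1.31 and 2.26 points.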

How the data were processed

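ERRBS data of 3 Tet2 KO and 3 Tet2 WT libraries were used. Reads were aligned with Bismark to GRCm38, per the submitters' processing notes; versions and further settings were not stated there. The deposited files give, per the file headers, a count of reads (coverage) and the percent of C and T calls at each CpG position and strand, from 10 reads upward. The number of methylated reads was computed as the deposited coverage count times the percent, and came out whole within the rounding to 3 decimals. No sample column was left unused.

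On the autosomes, X and Y, a position was kept if each library had 10 or more reads there. Genes and 1-based coordinates are from RefSeq for GRCm38.p6; exons and introns were not analysed here. Single positions, 1 kb tiles (3 or more positions) and gene spans (5 or more) with a mean of 5% to 95% were fitted over the whole genome. The fit was a quasi-binomial model with the Pearson dispersion moderated as in limma (3.58.1) and Benjamini-Hochberg adjustment, in Python 3.11.15 with numpy 2.4.6, scipy 1.17.1 and pandas 2.3.3. Features with an adjusted p under 0.05 and at least 10 points between group means were called. Coverage per tile was tested with edgeR 4.0.16 (TMM, quasi-likelihood) and, as an alternative, DESeq2 1.42.0 in R 4.3.3. Scripts were tested on simulated data. Group values are unweighted means ± SD of 3 libraries.

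The genes, lists and tests were chosen with earlier results of these data known. Tiles named are the called ones, the tile of largest difference in each gene and the tile with most positions at each start. Positions are at most 3 per gene whose groups did not overlap. The tile from 46594001 in Coro2a, position 172391011 near Cass4 and further Cass4, Cytip and Itgb2 tiles were added after their values were seen. At most 3 called tiles are named per list. PCR copies were not told apart, and summed reads count a read at every CpG it covers, so read depth overstates independent molecules. Alternatives left out each library, blocked on replicate number, dropped the moderation or level filter, or used limma on log2 ratios (offset of 1). Others pooled reads, or weighted CpGs equally, where calls came from limma on percentages instead of the quasi-binomial test. Further ones raised the minimum to 20 reads, dropped positions above the 99.9th percentile of coverage, shifted the tiles by 500 bp and changed the span.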

Additional observations from a re-analysis of the deposited data

Results flagged for a closer look

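In Myo1g, 2 CpG positions on the forward strand of chromosome 11, at 6510787 and 6510806, were listed in all 3 KO libraries and in no WT library, and so entered no comparison. They had 11, 13 and 10 reads and 12, 13 and 10 reads in KO replicates 1, 2 and 3, all methylated, so the level was 100% in each. The files list positions from 10 reads upward, and these are at or just above that minimum. Across the genome 1738 positions were listed in all KO and no WT libraries and 1819 in all WT and no KO libraries, of 2029063 listed in any. The lower-coverage Myo1g tile of the KO libraries, from 6510001, holds both positions.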

How the results depend on the processing

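Under the alternatives tried, 0 of 212 recomputed values reversed and 152 kept their size or call; 35 were called tiles that lost their call in the same direction, 19 were counts of calls that moved by over 1.5 times, and 6 were gene differences that moved by over 1 SD and stayed positive. The 5 called tiles were 2 to 5 with 1 library left out. They were 0 with unmoderated dispersion, limma on log2 ratios, all levels tested or CpGs weighted equally. Those settings called 0, 0, 33 and 0 tiles higher in the genome, beside 569, and the cause was not tested. Equal weight also replaced the quasi-binomial test by limma on percentages, so weight and test changed together. The 5 tiles then differed by 17.9 (Cytip), 42.3 (Cass4), 22.6 (Coro2a), 19.6 (Myo1e) and 11.1 points (Itgb2). Only the Cass4 and Coro2a tiles were called in 6 of 6 leave-one-out fits. The 12 called positions were 0 to 7 with 1 library left out, 0 without KO replicate 2 or without WT replicate 1, and 0 under the replicate block, unmoderated dispersion, limma or all levels tested. The replicate block left 5 tiles, 0 gene spans and 0 coverage differences called. Same-numbered libraries were nearly uncorrelated in their deviations (r = 0.0229 for number 1). With groups of 3 this cannot show whether equal numbers share a preparation, and the labels do not say. Gene spans called were 2 without 1 kb at each end, and 0 otherwise. Pooling reads gave differences of 15.5 (Cytip), 5.67 (Coro2a), 2.23 (Myo1e), 3.12 (Itgal) and 7.90 points (Itgb2), and leaving off the flanks gave 1.39 for Coro1a. For coverage, DESeq2 called 23 tiles higher and 74 lower in the genome, and edgeR 1 and 0. Of the 5 called tiles those of Cytip and Cass4 were the least deeply read, with 147 and 221 reads in their lowest libraries; the Coro2a tile from 46536001, the Itgb2 tile from 77556001 and the Myo1g tile from 6511001 had 117, 136 and 142, and groups of 3 limit every spread given.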
